A study of Mus musculus with 6 samples.

Results

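Vascular endothelial cells (VECs) make proteins that hold blood fluid and set the tone of the vessel wall, and 9 such genes are described here across the 6 libraries of the series. They were taken by name from the deposited table, which lists 55487 genes: Vwf, Thbd, Procr, Tfpi, F3 and Plat for haemostasis, and Nos3, Edn1 and Ednrb for vascular tone. All 9 were found, each on 1 row of the table, and all 9 had at least 10 reads in at least 3 libraries. The study asked what the loss of the clock gene Bmal1 does in retinal VECs. Libraries 1 to 3 came from control animals (tdTomato FL/+;Pdgf-icreER) and libraries 4 to 6 from Bmal1;CKO animals (Bmal1 FL/FL;tdTomato FL/+;Pdgf-icreER). Both groups carried the Cre transgene and the tdTomato reporter and were given tamoxifen on P0.5 through P2.5. Retinas were taken at P7.5, and cells positive for both GFP, which the Pdgf-icreER transgene expresses, and tdTomato, which marks Cre activity, were sorted as VECs. As their genotype is given, the control animals carried no floxed Bmal1 allele, so the alleles and the loss of Bmal1 differ together between the groups.

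Haemostasis at the vessel wall rests on opposed activities. Tissue factor (F3) starts coagulation and its inhibitor Tfpi blocks that start; thrombomodulin (Thbd) turns thrombin into an activator of protein C, which the receptor Procr presents; von Willebrand factor (Vwf) tethers platelets and carries factor VIII; tissue plasminogen activator (Plat) starts the lysis of fibrin. Vascular tone is set in part by nitric oxide from endothelial nitric oxide synthase (Nos3), a relaxing signal, and by endothelin 1 (Edn1), a constricting one. The endothelin receptor Ednrb is found on endothelium, where it promotes relaxation and clears the peptide, and also on glia and other cells. In the circadian clock, BMAL1 pairs with CLOCK and binds the E-box CACGTG.

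The libraries held 71145068 to 104017800 reads on genes. Values are normalized counts, that is reads after scaling for depth with DESeq2 size factors, and n = 3 libraries per group throughout. Arntl, which encodes BMAL1, stood at 1700.4, 3489 and 2928 normalized counts in control and at 1779, 2747 and 2415 in Bmal1;CKO, so the groups overlapped. Its count runs over the whole gene and therefore does not check the deleted exon. The paper itself measured Bmal1 transcript by droplet digital PCR in sorted endothelial cells and reported a significant reduction in the mutant. All 14 endothelial markers (among them Pecam1, Cdh5 and Cldn5) had at least 10 reads in every library, but their summed level was 197601 to 388804 in control and 120459 to 255465 in Bmal1;CKO. The 11 markers of microglia and macrophages summed to 1457328 to 4313192 and 2111918 to 4208059, and the 12 rod markers to 904625 to 1151104 and 660752 to 1112353, so markers of other cell types outweighed the endothelial ones in every library. Pericyte and smooth muscle markers ranged from 5166 in library 1 to 58880 in library 3 among controls and from 7513 to 11405 in Bmal1;CKO, with Abcc9, Anpep, Tagln and Myh11 at 0 in at least 1 library. In such bulk samples, fewer cells of a type and less RNA per cell cannot be told apart.

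**Figure D1:**
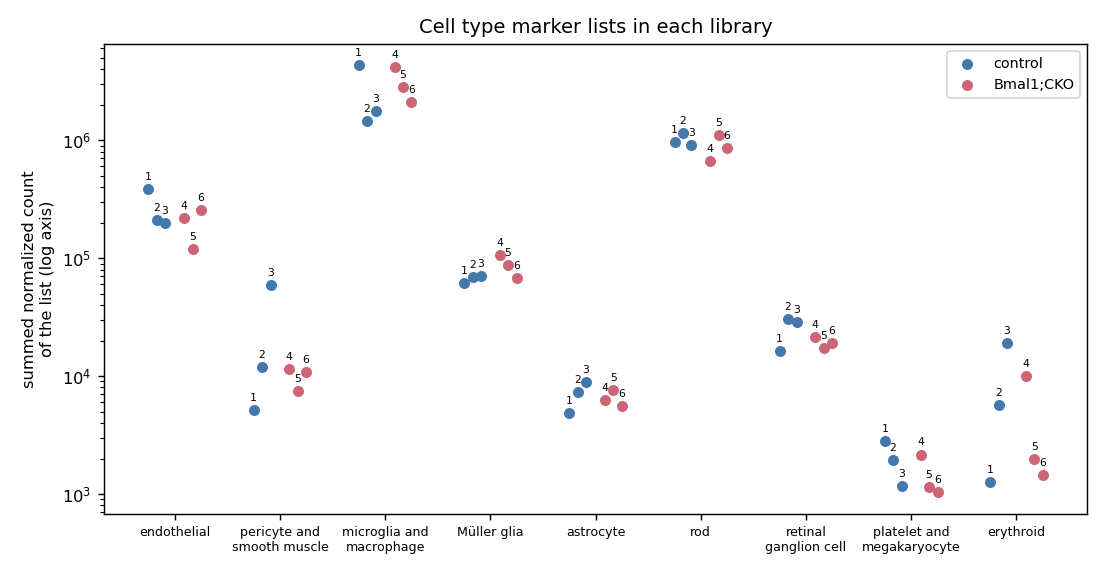
Summed normalized count (log axis) of 9 lists of cell type markers, 1 point per library, with control numbered 1 to 3 and Bmal1;CKO 4 to 6. The endothelial sum is highest in library 1 (388804) and lowest in library 5 (120459), and the microglia and rod sums lie above it in every library.

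None of the 9 genes passed the test between Bmal1;CKO and control. The test was limma-trend on log2(normalized count + 1) over 20459 genes with Benjamini-Hochberg adjustment, and at an adjusted p under 0.05 it called 0.0% of all genes. At an unadjusted p under 0.05 it held 1007 genes (4.92%), and 1 of the 9, Vwf, was among them. In 7 of the 15 alternatives, among them edgeR and the scaling to endothelial markers, the unadjusted p of Vwf was not under 0.05. Groups that did not overlap were found for 2 of the 9, Vwf and Tfpi, both lower in every Bmal1;CKO library, where 4.54% of all tested genes were lower without overlap and 11.2% were apart in either direction. DESeq2 called 0.327% of all genes at an adjusted p under 0.05, edgeR and limma-voom 0.0%, and limma-trend after scaling to the endothelial markers 0.00489%, with 0 of the 9 among them each time. The median log2 fold change of the 9 was -0.15, with 4 above 0 and 5 below, while over all tested genes it was 0.11. These p-values measure the spread between the sequenced samples, and 3 libraries against 3 allow no exact permutation p below 0.1.

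**Figure D2:**
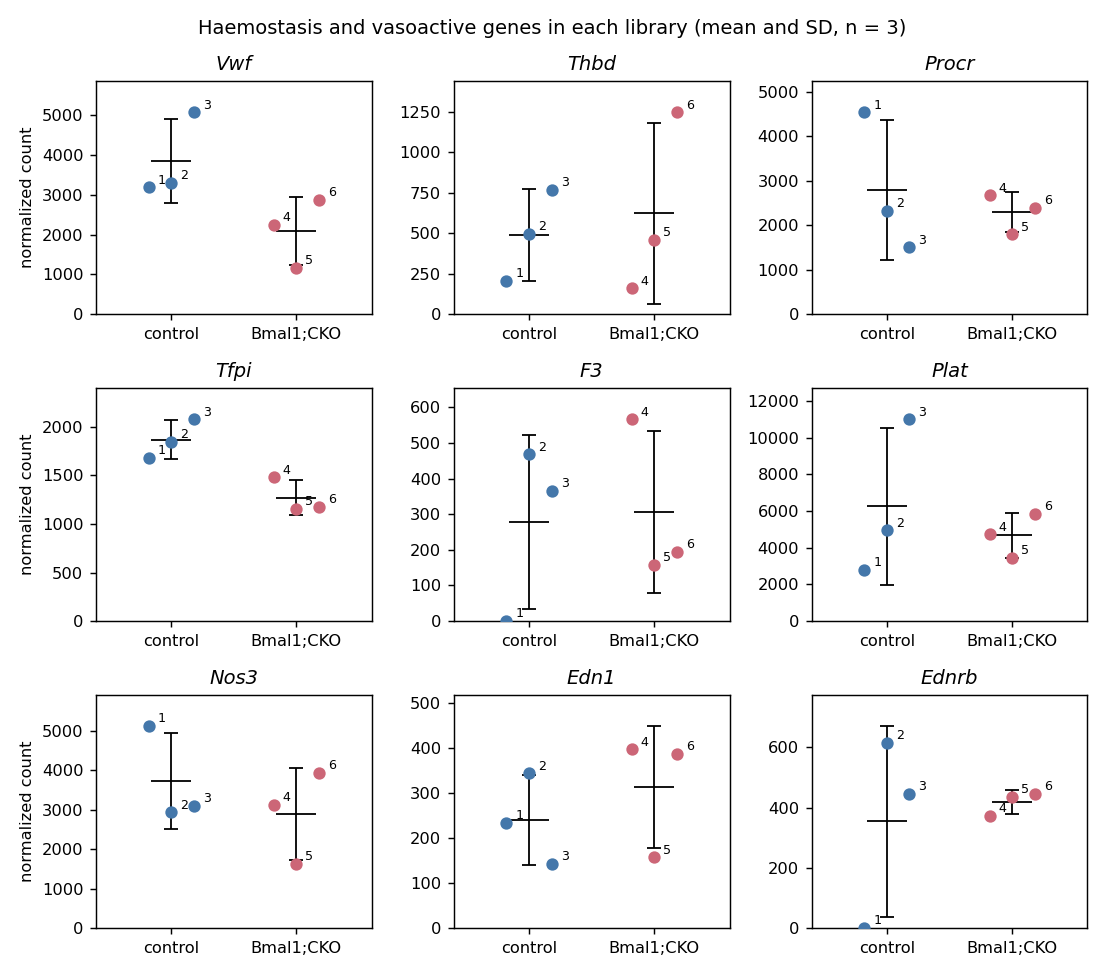
Normalized count of each of the 9 genes (linear axes from 0), with 1 point per library and the mean with SD of 3 libraries per group. Vwf and Tfpi are the panels in which all Bmal1;CKO points lie below all control points, and F3 and Ednrb sit at or near 0 in library 1.

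Per kilobase of exon, the highest level in control was that of Procr, at 1372 ± 771 normalized counts per kb (SD, n = 3), followed by Plat at 1001 and Nos3 at 901. Tfpi (342), Vwf (239.8), Thbd (132), Edn1 (112), F3 (110.0) and Ednrb (82.9) came after these. The only neighbours in this order whose library values did not overlap were Nos3 and Tfpi, in control and again in Bmal1;CKO. The genes thus fell into an upper group of 3, for the protein C receptor, the plasminogen activator and the nitric oxide synthase, and a lower group of 6. In Bmal1;CKO the order was Procr, Plat, Nos3, Tfpi, Thbd, Edn1, Vwf, F3 and Ednrb. Vwf moved from place 5, at 239.8 ± 65.7 normalized counts per kb, to place 7, at 131 ± 53.5, among neighbours with which it overlapped.

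Vwf encodes the platelet tether that endothelium stores and releases (ENSMUSG00000001930, GRCm38 chr6:125546774-125686679, plus strand, 56 exons after merging transcripts). Its normalized counts were 3188, 3298 and 5069 in control libraries 1 to 3 and 2240 (library 4), 1174 (library 5) and 2876 (library 6) in Bmal1;CKO. Every Bmal1;CKO library thus lay under every control library, with library 5 furthest down. The means were 3852 ± 1056 and 2097 ± 860 (SD, n = 3 each), and the second was 54.4% of the first. The log2 fold change was -0.94 (SE 0.40; 95% interval -1.86 to -0.02) with a limma-trend unadjusted p = 0.0468 and adjusted p = 0.883. Over the 15 alternatives the unadjusted p of Vwf ranged from 0.0258 to 0.486. The adjusted p ranged from 0.509 to 1.00 over the alternatives. The difference rested partly on library 5: without it the log2 fold change was -0.57. Megakaryocytes also make von Willebrand factor, and 9 of their markers summed to 1160 to 2792 in control and 1032 to 2162 in Bmal1;CKO. Of these, Ppbp, Gp1bb, Gp1ba and Gp6 were at 0 in at least 1 library and Gp6 in all 6.

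Tfpi, the inhibitor of the tissue factor pathway (ENSMUSG00000027082, GRCm38 chr2:84432855-84476775, minus strand), had the lowest CV of the 9 over the 6 libraries (23.6%). It stood at 1678, 1848 and 2079 normalized counts in control and at 1479.6, 1153 and 1179 in Bmal1;CKO. All Bmal1;CKO values lay below all control values, with libraries 1 and 4 nearest to each other. The means were 1868 ± 201 and 1270.5 ± 182 (SD, n = 3 each), the second being 68.0% of the first. The log2 fold change was -0.56 (SE 0.29; 95% interval -1.24 to 0.12), with a limma-trend adjusted p of 0.883 and a two-sided exact permutation p of 0.1, the smallest this design gives. Leaving out any single library gave -0.67 to -0.48.

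Promoter windows of RefSeq, from 250 bases before to 50 after a transcript start on GRCm38.p6, were at hand for 5 of the 9 genes (Tfpi with 2 windows, and Procr, F3, Edn1 and Ednrb). The E-box CACGTG, which reads the same on both strands, was in 1 of the 6 windows, that of the upstream Tfpi start, and in 7.15% of all 32851 windows. The stretch that holds it is shown because Tfpi is 1 of the pair of genes whose groups were apart. It is chr2:84476738-84476859 on the minus strand, 5′ to 3′, with 100 bases before the start at 84476759 and 22 from it, and capitals mark the E-box, at transcribed bases 17 to 22:
Tfpi: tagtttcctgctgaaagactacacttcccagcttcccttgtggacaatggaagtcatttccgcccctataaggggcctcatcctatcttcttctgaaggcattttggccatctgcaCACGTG
The match describes these letters and no binding was measured in this series. A window without a match says only that the 6 letters are absent from it.

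Thbd, the thrombin receptor of the protein C pathway, is a gene of 1 exon (ENSMUSG00000074743, GRCm38 chr2:148404466-148408188, minus strand). It had 205, 496 and 768 normalized counts in control and 162, 462 and 1248 in Bmal1;CKO. The lowest and the highest library both belonged to Bmal1;CKO. The means were 490.0 ± 281 and 624 ± 561 (SD, n = 3 each), with a log2 fold change of 0.08 (SE 0.85; 95% interval -1.89 to 2.06) and a limma-trend adjusted p of 0.989. No difference was detectable at this spread.

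Procr, the endothelial receptor that presents protein C (ENSMUSG00000027611, GRCm38 chr2:155751117-155755471, plus strand), stood at 4533, 2322 and 1507 normalized counts in control and at 2675, 1798 and 2389 in Bmal1;CKO. All 3 Bmal1;CKO values fell between the control extremes. Means were 2787 ± 1566 and 2287 ± 447 (SD, n = 3 each), and the log2 fold change was -0.15 (SE 0.43; 95% interval -1.16 to 0.85; limma-trend adjusted p = 0.947).

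F3, tissue factor, which starts coagulation (ENSMUSG00000028128, GRCm38 chr3:121723537-121735048, plus strand), had a single read in control library 1, a normalized count of 1.23. The other control libraries held 468 and 365, and the Bmal1;CKO libraries 567, 158 and 194. Library 4 lay above, and libraries 5 and 6 below, both of these control libraries. The means were 278 ± 245 and 306 ± 226 (SD, n = 3 each). The fitted log2 fold change of 1.84 (SE 1.98; 95% interval -2.75 to 6.44; limma-trend adjusted p = 0.886) turned to -0.67 without library 1. Library 1 also had the lowest sums of 5 marker lists: pericyte and smooth muscle (5166, against 7513 to 58880 in the other 5 libraries), astrocyte (4864, against 5593 to 8963), Müller glia (61212, against 67667 to 105466), retinal ganglion cell (16203, against 17402 to 30374) and erythroid (1259, against 1438 to 19045). Within the Müller glia list, Glul (12673) and Hes1 (5753) were highest in library 1. The other lists were not uniform either. Of the ganglion cell markers, Rbpms (3560) was highest in library 1. The pericyte markers Rgs5 and Vtn were lowest in libraries 5 and 4, and the astrocyte marker Slc1a2 in library 3. The part of these cells in the F3 count was not tested.

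Plat, tissue plasminogen activator (ENSMUSG00000031538, GRCm38 chr8:22757727-22782844, plus strand), had the highest normalized count of the 9 in a single library. The values were 2803, 4939 and 11003 in control and 4720.1, 3435 and 5838 in Bmal1;CKO. The control group held both the lowest and the highest value. Means were 6248 ± 4254 and 4664 ± 1203 (SD, n = 3 each), with a log2 fold change of -0.23 (SE 0.49; 95% interval -1.38 to 0.92) and a limma-trend adjusted p of 0.932. The high value came from library 3, in which the pericyte and smooth muscle markers were also highest (58880), and whether these are linked was not tested. Without library 3 the log2 fold change was 0.29.

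Nos3, endothelial nitric oxide synthase (ENSMUSG00000028978, GRCm38 chr5:24364810-24384474, plus strand), had 5127, 2936 and 3103 normalized counts in control and 3129, 1632 and 3935 in Bmal1;CKO. The means were 3722 ± 1220 and 2899 ± 1169 (SD, n = 3 each). The groups overlapped, with a log2 fold change of -0.41 (SE 0.40; 95% interval -1.34 to 0.53; limma-trend adjusted p = 0.884), and without library 5 it was -0.04. On the opposite strand, the antisense gene Gm15587 shares 1040 exon bases with Nos3 and Atg9b shares 294. The use of strand in the counting is not given in the sources used here, so reads in these bases could come from either gene.

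Edn1, the constricting peptide endothelin 1 (ENSMUSG00000021367, GRCm38 chr13:42301476-42307990, plus strand), stood at 234, 343 and 143 normalized counts in control and at 397, 157 and 386 in Bmal1;CKO. The highest values, those of libraries 4 and 6, were in Bmal1;CKO, but library 5 lay down with the lowest control. Means were 240.0 ± 100.4 and 313 ± 135 (SD, n = 3 each), with a log2 fold change of 0.36 (SE 0.67; 95% interval -1.20 to 1.91) and a limma-trend adjusted p of 0.921.

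Ednrb, the endothelin B receptor (ENSMUSG00000022122, GRCm38 chr14:103814625-103844402, minus strand), had 0 reads in control library 1, which allows up to 3 reads or 3.69 normalized counts, counting error only. The other control libraries held 614 and 447 normalized counts and the Bmal1;CKO libraries 373, 435 and 446. Outside library 1, all 5 libraries thus lay between 373 and 614. The SD of the Bmal1;CKO group was 39.8 about a mean of 418, against 318 about 354 in control. The fitted log2 fold change of 2.68 (SE 2.27; 95% interval -2.59 to 7.96; limma-trend adjusted p = 0.883) turned to -0.33 without library 1. As given beside F3, library 1 had the lowest sums of 5 of the 9 marker lists, and the part of these cells in the Ednrb count was not tested.

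**Figure D3:**
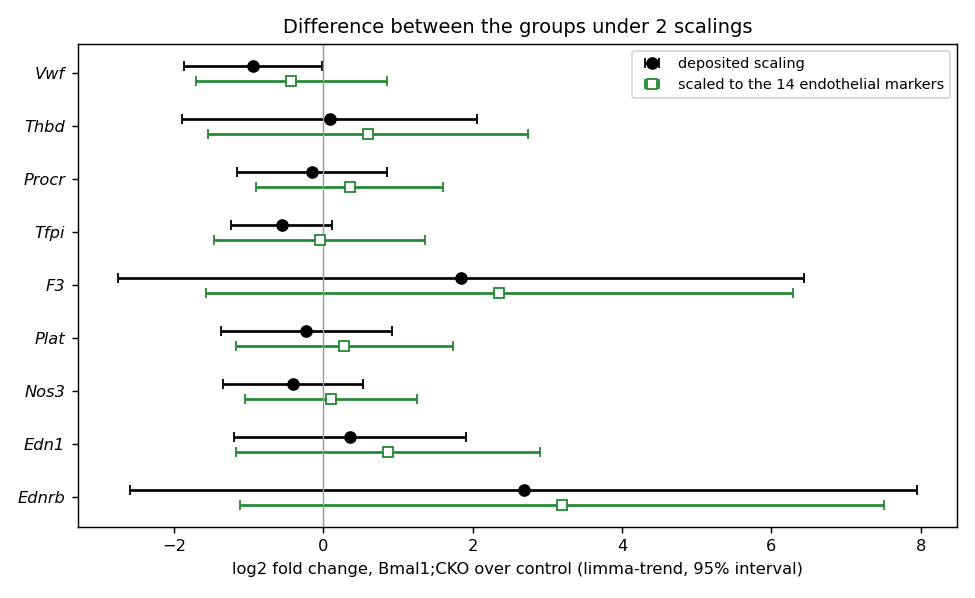
Log2 fold change of each gene, Bmal1;CKO over control, with its 95% interval from limma-trend, on the deposited scaling (filled circles) and after scaling each library to its 14 endothelial markers (open squares). Vwf is the single gene whose interval on the deposited scaling ends below 0 (at -0.02), and it spans 0 after the second scaling.

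The level of the endothelial markers differed between the libraries. The geometric mean of the 14 endothelial markers was 13296, 6981 and 7025 normalized counts in control and 6612, 3652 and 9326 in Bmal1;CKO, a 3.64-fold range. All 14 had a log2 fold change below 0, with a median of -0.45, although none was apart between the groups. After each library was scaled to this mean, the median over all tested genes moved from 0.11 to 0.62 on the log2 scale. Against that shift, Vwf stood at -0.43 (SE 0.60; limma-trend adjusted p = 0.88) and Tfpi at -0.05 (SE 0.66; adjusted p = 0.99), and both had overlapping groups. Procr (0.36), Plat (0.28) and Nos3 (0.11) came above 0 on this scaling, though below the median of all tested genes (0.62). Relative to the endothelial mean, Vwf was 24.0%, 47.3% and 72.2% in control and 33.9%, 32.2% and 30.9% in Bmal1;CKO. The lowest share of Vwf was thus in a control library, library 1, while the 3 Bmal1;CKO libraries lay close together. Tfpi was 12.6%, 26.5% and 29.6% in control and 22.4%, 31.6% and 12.7% in Bmal1;CKO, so its separation was not kept on this scale.

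Nos3 followed the endothelial markers closely. Its level was 38.6%, 42.1% and 44.2% of the endothelial mean in control and 47.3%, 44.7% and 42.2% in Bmal1;CKO. Its normalized counts spanned a 3.14-fold range over the 6 libraries, and its share of the endothelial mean a 1.23-fold range. The SD over the 6 libraries on the log2 scale went from 0.55 to 0.10, and 0 of the 20459 tested genes had a smaller SD after this scaling, the 14 markers included (the lowest of these was Flt1 at 0.12). The median SD of all tested genes was 0.68 before and 0.91 after the scaling. Nos3 was singled out here after its values were seen, and the 6 libraries share their size factors and markers across genes, so this is a description. With the median of the 14 markers in place of their mean, 4 genes had a smaller SD, and with 1 library left out its rank lay between 1 and 11, the last without library 5.

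The other members did not stay so close to the endothelial mean. Plat was 21.1%, 70.8% and 157% of it in control and 71.4%, 94.1% and 62.6% in Bmal1;CKO, and Thbd ran from 1.55% in library 1 to 13.4% in library 6. Procr lay between 21.5% and 49.3%, and Edn1 between 1.77% and 6.01%. Library 1 gave the lowest share of the 6 libraries for every member other than Procr. On the log2 scale, the SD over the 6 libraries was smaller after the scaling for Vwf (0.56 against 0.71), Procr (0.43 against 0.55) and Nos3, and larger for the other 6 genes.

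**Figure D4:**
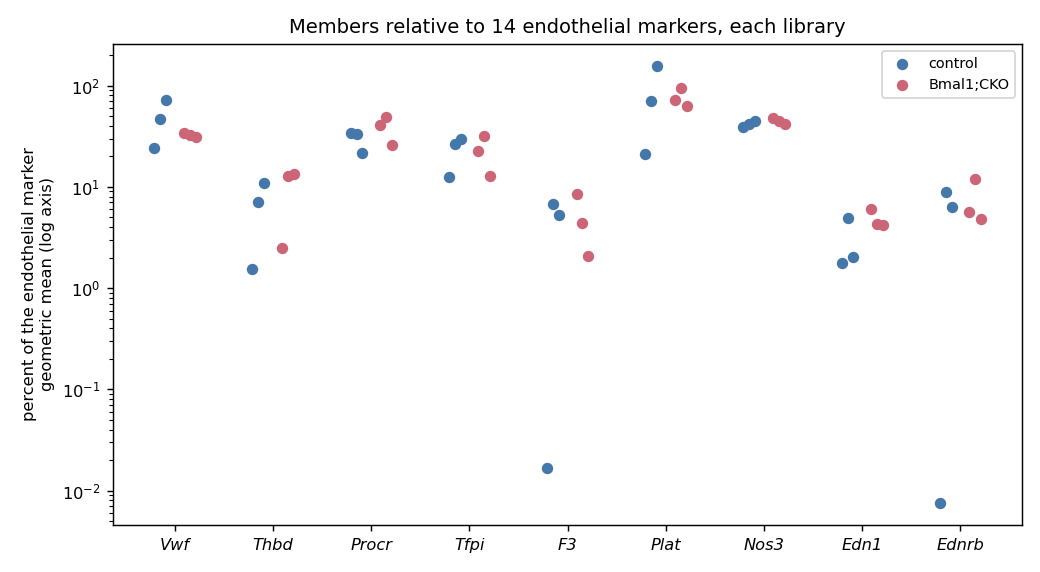
Level of each gene as a percent of the geometric mean of the 14 endothelial markers (log axis), 1 point per library. Nos3 lies between 38.6% and 47.3% in all 6 libraries, while Plat runs from 21.1% to 157%; the lowest points of F3 and Ednrb are library 1, where the count of 1 added before taking logs sets the position of Ednrb.

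The wider pathways were read through 3 lists of 63 genes without the members, of which 46 were tested, and 0 of these passed the test. Their median log2 fold change was -0.36, with 13 above 0 and 33 below. At an unadjusted p under 0.05 there were 6 (3 higher and 3 lower in Bmal1;CKO, against 3.17% and 1.75% of all tested genes). Groups did not overlap for 9, with 5 higher and 4 lower, beside 6.62% and 4.54% of all tested genes. Both counts of higher genes include F2 and Serpinc1, which reached the read minimum for testing in the Bmal1;CKO libraries only. These counts thus hold genes admitted through the group in which they are high, which limits their comparison with the shares of all tested genes.

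In the list for coagulation, its inhibitors and platelet adhesion, 16 of 23 genes were tested, 5 above 0 and 11 below, with a median log2 fold change of -0.47. Tfpi2, a Kunitz-type inhibitor related to Tfpi, had 890 (library 1), 237 and 313 normalized counts in control and 80.2, 76.9 and 133 in Bmal1;CKO. All Bmal1;CKO libraries were lower, with means of 480 ± 357 and 96.8 ± 31.8 (SD, n = 3 each). Its log2 fold change was -2.10 (SE 0.74; limma-trend unadjusted p = 0.0228, adjusted p = 0.883), and its groups stayed apart relative to the endothelial mean. Tfpi and Tfpi2 were thus both lower in every Bmal1;CKO library on the deposited scaling, and neither passed the test. Prothrombin (F2) had 0, 0 and 2 reads in control and 39, 168 and 25 in Bmal1;CKO, and antithrombin (Serpinc1) 1, 0 and 1 against 20, 13 and 42. These counts are too low in control for a fold change to be given. Both genes reached the read minimum for testing in the Bmal1;CKO libraries only, so they were admitted through the group in which they are high. Their direction is therefore not a separate result of the test, and both are among the 5 genes above 0 in this list. With limma-trend their adjusted p was 0.826 for F2 and 0.883 for Serpinc1. Thrombin's receptor F2r (log2 fold change -0.46), protein S (Pros1, -0.56) and factor VIII (F8, -2.72, limma-trend adjusted p = 0.883) had overlapping groups. P-selectin (Selp), which lies with Vwf in endothelial storage granules, had no read in 4 libraries and at most 42.2 normalized counts, and was not tested.

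In the fibrinolysis list, 8 of 11 genes were tested, 4 on each side of 0, with a median log2 fold change of 0.18 (-0.18 with edgeR or DESeq2). Urokinase (Plau, log2 fold change -0.07), its receptor Plaur (0.37) and annexin A2 (Anxa2, -0.24), which binds plasminogen activator at the cell surface, had overlapping groups.

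**Figure D5:**
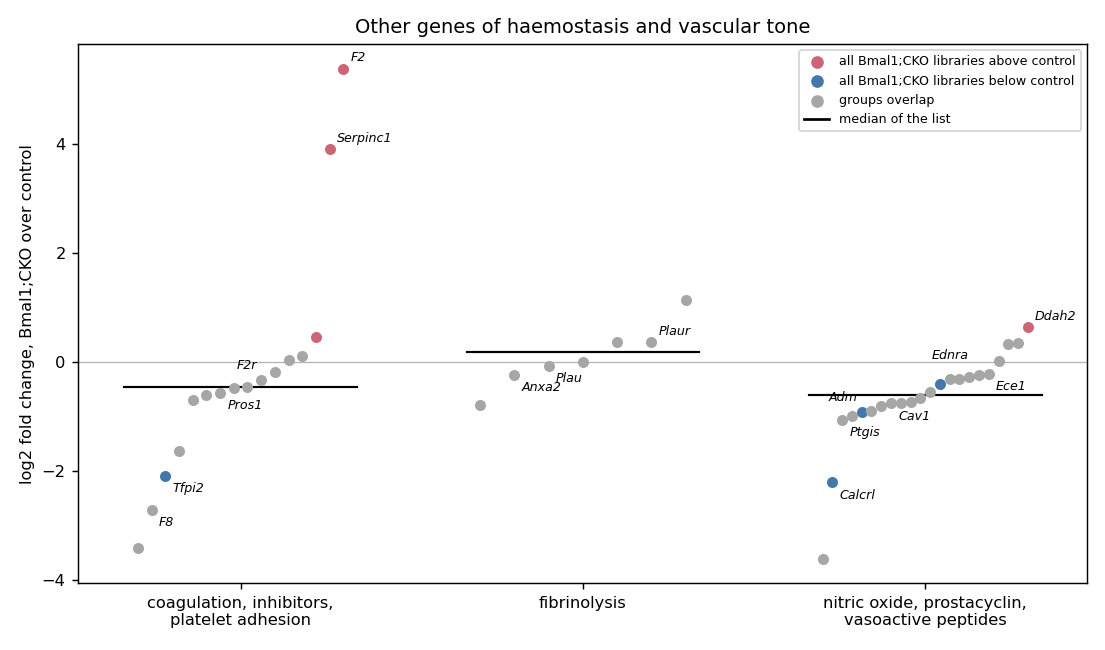
Log2 fold change (Bmal1;CKO over control) of 45 of the 46 tested genes of the 3 pathway lists, 1 point per gene, with the median of each list as a line (-0.47, 0.18 and -0.61). Coloured points are the 8 plotted genes whose groups do not overlap, and the positions of F2 and Serpinc1 depend on the count of 1 added before taking logs.

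Among the genes of nitric oxide, prostacyclin and vasoactive peptides, 22 of 29 were tested, 4 above 0 and 18 below. Their median log2 fold change was -0.61 on the deposited scaling and -0.10 after scaling to the endothelial markers. The median of all tested genes was 0.11 and 0.62 on these scalings. Adm, adrenomedullin, a dilating peptide, had 3563, 3098 and 5767 normalized counts in control and 2668, 1309 and 2681 in Bmal1;CKO. Its receptor component Calcrl had 516, 231 and 118 against 30.9, 57.9 and 75.8. The ligand and this 1 receptor component were thus both lower in every Bmal1;CKO library, where Calcrl held only 22, 67 and 92 reads. Their log2 fold changes were -0.92 (SE 0.39; limma-trend unadjusted p = 0.0484) for Adm and -2.21 (SE 0.86; unadjusted p = 0.0349) for Calcrl, with an adjusted p of 0.883 for both, and Calcrl alone of the pair stayed apart relative to the endothelial mean. Ddah2, a member of the dimethylarginine dimethylaminohydrolase family, was higher in every Bmal1;CKO library: 14834, 13197 and 14961 normalized counts in control against 26419, 24505 and 16841 (log2 fold change 0.63, SE 0.26; limma-trend unadjusted p = 0.0401, adjusted p = 0.883). Its groups overlapped relative to the endothelial mean.

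Genes that act directly beside the members gave no separation of the groups. Prostacyclin synthase (Ptgis) had a log2 fold change of -1.07, caveolin 1 (Cav1), which binds and restrains NOS3, one of -0.76, and the endothelin converting enzyme Ece1 one of -0.22. The endothelin A receptor Ednra, found mainly on the mural cells around vessels, had 1.23, 203 and 947 normalized counts in control and 114, 32.8 and 65.9 in Bmal1;CKO. It ran lowest in library 1 and highest in library 3, as did the sum of the pericyte and smooth muscle markers. The ligand gene Edn3 had 0 reads in 4 libraries and at most 40.4 normalized counts, and was not tested.

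For each member, the genes with the most similar pattern were sought among the 15046 genes that reached 10 reads in each of the 6 libraries, by the root mean square difference of mean-centred log2 values over the 6 libraries. Adm was the nearest to Vwf, at 0.14, followed by the collagen chaperone gene Serpinh1, also at 0.14, against 0.64 for Vwf about its own mean. The nearest to Nos3 were Gm5879, at 0.10, and the endothelial marker Emcn, at 0.13. The nearest to Procr were Ralgapb and Gm8655, to Tfpi Gm12384 and Adi1, to Plat Zfand4 and Cdc42ep4, to Thbd Ercc2 and Tom1l2, and to Edn1 Stra6 and Lama5. F3 and Ednrb have under 10 reads in library 1, and genes with so few reads in a library were not searched. The genes found for them, Gpr19 at 0.45 and Prdm13 at 0.48, are therefore limited by that filter. No member was among the 2 nearest genes of another. The closest pair of members was Nos3 and Procr, at 0.38. With 6 points and a search over so many genes, this likeness is given as a description.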

How the data were processed

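RNA was measured in VECs sorted from 3 control and 3 Bmal1;CKO retinal samples, amplified with the Smart v4 kit. Per the labels and the paper's methods, the authors used FastQC and Trimmomatic, aligned reads to mm10 (GRCm38) and counted them with featureCounts. The deposited values are a signal, the read count scaled by a DESeq2 size factor. Division by each column's smallest step gave whole reads for 100% of values (tolerance 0.01). The authors' fold change, Wald, p and adjusted p columns were not used. Columns name the genotype but not the animal, so each was used as a replicate of its genotype.

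Genes reaching 10 reads in 3 or more libraries were tested with limma-trend (R 4.3.3, limma 3.58.1) on log2(normalized count + 1), and genotype was the single term. Alternatives were edgeR 4.0.16, DESeq2 1.42.0, limma-voom, pseudocounts of 0.5 and 10, other filters, scaling to 14 endothelial markers and each library left out. Single values were compared with two-sided exact permutation tests. The fits were tested on simulated data. Gene locations and exon lengths came from GENCODE M21 and promoters from RefSeq. Levels per kb divide by merged exon length. Zero-count limits and depth cover counting error only, since the RNA was amplified.

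The members, the pathway and marker lists and the tests were chosen with earlier results of these data known. The genes named are the members, Arntl, 15 fixed pathway genes, every other list gene with an unadjusted p under 0.05 and groups apart, and the 2 genes most like each member; genes that this rule or the lists hold but the text does not name are not reported here. Ratios and the spread of Nos3 were looked at after the values were seen.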

Additional observations from a re-analysis of the deposited data

How the results depend on the processing

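Of 133 alternative values for the log2 fold changes of the 9 members, 123 kept their direction and 10 turned. The members called stayed at 0 under all alternatives. Over all genes, DESeq2 called 67, scaling to the endothelial markers 1, a filter of at least 1 read in total 1 and a filter of at least 10 reads in every library 1, where limma-trend on the deposited scaling called 0 with 1007 at an unadjusted p under 0.05. Leaving out 1 library gave 0 to 6 genes, the 6 without control library 1. Scaling to the endothelial markers turned the log2 fold changes of Procr (0.36), Plat (0.28), Nos3 (0.11), Plau (0.44), Anxa2 (0.27), F2r (0.047), Ece1 (0.29) and Ednra (0.27). All of these lie below 0.62, the median of all tested genes on this scaling. The same scaling moved the median of the fibrinolysis list to 0.69. That of the nitric oxide, prostacyclin and vasoactive peptide list moved to -0.10. The fibrinolysis median was -0.18 with DESeq2 and with edgeR under either scaling.

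Leaving out 1 library gave ranges of -0.64 to 0.83 for Thbd, -0.52 to 0.27 for Procr, -0.67 to 3.19 for F3, -0.69 to 0.29 for Plat and -0.33 to 4.30 for Ednrb, and of -0.91 to 0.62 for Plau, -0.55 to 0.040 for Anxa2 and -2.79 to 1.58 for Ednra. For F3 and Ednrb the turn came without control library 1, the library with 1 and 0 reads. The cause of the other turns was not tested. F3 and Ednrb gave no value under the filter of at least 10 reads in every library. No paired analysis was possible because the columns of the deposited table carry the genotype and not the replicate numbers of the labels. With 3 libraries a group, differences within the intervals given for each gene were not detectable.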

Other observations

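Ratios between members and their partners were computed after the values were seen and are given without a test. The ratio of Nos3 to Edn1 was 21.9, 8.55 and 21.7 in control and 7.89, 10.4 and 10.2 in Bmal1;CKO, with overlap through control library 2. The ratio of Ednrb to Ednra was 0, 3.02 and 0.47 in control and 3.27, 13.3 and 6.77 in Bmal1;CKO. The value of library 1 rests on 0 reads of Ednrb over 1 read of Ednra and has no usable precision, and library 4 lay close to control library 2. Ednra and the pericyte and smooth muscle markers were lowest in library 1 and highest in library 3, and their part in this ratio was not tested. Entpd1, which breaks down the platelet agonist ADP and its precursor, and Nostrin, which binds NOS3 and affects where it lies in the cell, were further pathway genes whose groups did not overlap. Entpd1 was higher in every Bmal1;CKO library (log2 fold change 0.46) and Nostrin lower (-0.40), and neither passed the limma-trend test.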
